A study of Sus scrofa with 9 samples.

Results

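Notch signalling was examined through 10 genes in porcine valvular interstitial cells (PVICs), the fibroblast-like cells that keep up the matrix of the aortic valve. The genes were taken by symbol from the pathway: the receptors NOTCH1, NOTCH2 and NOTCH3, the ligands JAG1, JAG2 and DLL4, and the target genes HES1, HEY1, HEY2 and HEYL. Of these 10, 8 were analysed, among 19535 gene rows in all, and 7 had enough counts to be tested. NOTCH1 and JAG2 were not analysed here, and DLL4 was read too rarely for a test.

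Notch is a signal between touching cells. A Jagged or Delta ligand on 1 cell binds a Notch receptor on its neighbour, proteases then cut the receptor, and the freed intracellular domain enters the nucleus, where it joins the DNA-binding protein RBPJ and a Mastermind coactivator. The classical targets are the HES and HEY genes, which encode basic helix-loop-helix repressors of transcription, and the pathway is known for its part in heart valve formation and in the control of valve calcification.

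RNA was sequenced from wild-type cells of pigs aged 4 to 5 months in 3 groups of 3 libraries. Control cells stayed in DMEM with serum, OIM cells received an osteogenic medium with sodium dihydrogen phosphate, ascorbic acid and insulin, which is used to induce calcium deposition, and bFGF cells received the same osteogenic medium together with 50 ng/mL basic fibroblast growth factor (bFGF). The sample labels give 3 days of treatment, and the study's methods give a shorter time. There was no group with bFGF in plain medium, so bFGF was measured only on top of OIM. Leaflets came from several pigs and the valve endothelium was swabbed off per the labels. Neither source says whether the 3 libraries of a group were separate animals or cultures, so p-values measure the spread between these libraries, which may be technical.

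Library totals were 57075793 to 64723837 gene counts in control, 57682710 to 67371523 in OIM and 46773376 to 48270827 in bFGF. Levels below are gene counts scaled to a library of 1000000 counts (CPM) after TMM scaling, which corrects for differences in RNA composition, and changes are log2 fold changes from edgeR's quasi-likelihood test. A gene was called when its Benjamini-Hochberg adjusted p was at most 0.05 and its log2 fold change was at least 0.5 in size. The 10 interstitial markers summed to 61600 to 70400 CPM in control and OIM and to 38900 to 39200 CPM in bFGF, against 8.53 to 16.4 CPM for leukocyte markers, among which CD3E was at 0 in every library. The leukocyte sum was 13 to 16.4 CPM in control, 14.1 to 16 in OIM and 8.53 to 9.36 in bFGF. Most of it was CD14, with means of 13.7, 13.5 and 7.68 CPM, which was called lower in bFGF against OIM (log2 fold change -0.81). The interstitial list went both ways in bFGF against OIM: COL1A1, COL1A2, COL3A1 and DCN were called lower, and VIM, POSTN and S100A4 higher. OIM replicate 2 stood apart from the other OIM libraries in contractile genes: MYH11, the smooth muscle myosin, had 325, 182 and 337 CPM in OIM replicates 1 to 3, and ACTA2, smooth muscle actin, 9210, 6850 and 9290 CPM. That library also had the lowest NOTCH3, JAG1 and HES1 and the highest HEY2 and HEYL of the OIM group. NOTCH3 and JAG1 are given with and without it. Without it the log2 fold change in OIM against control was 0.16 for HES1 and -0.0082 for HEY2, neither called. In bulk RNA, fewer cells of a type and less RNA per cell cannot be told apart.

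The DNA in front of the 4 target genes is shown because their shared control by RBPJ is what makes them a Notch readout. RBPJ is known to bind the core TGGGAA, which reads TTCCCA on the other strand. Windows of 550 bases, from 500 before to 50 after each annotated start, were read from Sscrofa11.1 (RefSeq) on the strand of the gene and searched for both spellings, printed here in capitals with 12 bases on each side.
HES1 (chr13:131135633-131135676, plus strand): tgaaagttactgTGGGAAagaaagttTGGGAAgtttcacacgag
HEY1 (chr4:56859506-56859535, plus strand): ggcgccggcagtTTCCCAcggcccgcggcg
HEY2, distal (chr1:37231517-37231546, minus strand): tgcgcgaacgcgTTCCCAcgcctccgtccc
HEY2, proximal (chr1:37231308-37231337, minus strand): tgggctgcggcgTGGGAAagagcggcgagg
HEYL, distal (chr6:95459706-95459735, minus strand): ccgcccggggccTTCCCAcggctcggccag
HEYL, proximal (chr6:95459634-95459663, minus strand): aggaaagggcccTGGGAAagggcggcggcg
HES1 held 2 copies in the same orientation, the first of them 325 bases before the annotated start, and HEY1 held 1, at 122 bases. The HES1 model has 854 exon bases, of which 843 are coding, so its annotated start lies close to the coding sequence. Distances from it are not comparable with those of the other genes. HEY2 and HEYL held 2 each, facing opposite ways, at 213 and 4 bases before the start of HEY2 and at 126 and 54 bases before that of HEYL. Among the other genes, NOTCH2 and DLL4 had 1 match each, and NOTCH3 and JAG1 had 0. The hexamer is common: 9028 of 19528 promoters (46.2%) held it at least once and 13.9% at least 2 times. The longer form GTGGGAA, looked for after these windows had been read, occurred in all 4 target promoters and in 11.2% of all promoters. These matches describe letters in the genome and say nothing about binding in these cells.

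The receptor genes differed in response. NOTCH2 (chromosome 4, 100951522 to 101152348, plus strand) was the more abundant of the 2 receptor genes analysed and was not called in any comparison, whereas NOTCH3 (chromosome 2, 62364507 to 62402348, plus strand), known as the receptor of smooth muscle cells and pericytes, was lower in OIM than in control and lowest in bFGF. The 3 control libraries had 71.7, 84.2 and 71.0 CPM of NOTCH3, the OIM libraries 55.1, 45.4 and 54.4 CPM, and the bFGF libraries 9.96, 10.4 and 7.08 CPM. The 3 groups formed 3 separate ranges with no overlap.

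In OIM against control the log2 fold change of NOTCH3 was -0.55 (SE 0.092, edgeR quasi-likelihood adjusted p 0.000348). This left 68.3% of the control mean. NOTCH3 was the only 1 of the 7 tested genes that was called or that did not overlap between these groups, where 2.35% of all 13662 tested genes were called (1.49% higher and 0.864% lower) and 28.8% did not overlap. The call sat close to the fold limit: without control replicate 2 the log2 fold change was -0.47 (adjusted p 0.00588) and without OIM replicate 2 it was -0.47 (adjusted p 7.31e-05), both under the 0.5 required. Over all alternatives the adjusted p ran from 8.64e-07 to 0.00725 in the edgeR and DESeq2 fits.

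With bFGF added to OIM, NOTCH3 fell by 2.50 on the log2 scale (SE 0.107, edgeR quasi-likelihood adjusted p 5.55e-14), to 17.7% of the OIM mean, and without OIM replicate 2 its log2 fold change was -2.56. Against control, a comparison that shares the bFGF libraries with the one before, it fell by 3.05 (SE 0.107, edgeR quasi-likelihood adjusted p 2.17e-15), to 12.1% of the control mean. Both values rest on 368 to 539 counts in each bFGF library and on 2960 to 5102 in the others.

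NOTCH2 had 994, 1060 and 1020 CPM in the control libraries, 1080, 1060 and 1050 CPM in OIM and 1050, 1070 and 1090 CPM in bFGF. The ranges of the 3 groups overlapped. Its log2 fold change was 0.06 (approximate 95% interval -0.01 to 0.12) in OIM against control, 0.01 (-0.06 to 0.07) in bFGF against OIM and 0.07 (0.00 to 0.13) in bFGF against control. The adjusted p-values in edgeR's quasi-likelihood test were 0.289, 0.834 and 0.083. With library totals alone, which raised the median of all genes by 0.22 in each bFGF comparison, NOTCH2 was 0.23 higher in bFGF than in OIM and 0.29 higher than in control (edgeR quasi-likelihood adjusted p 1.25e-06 and 4.49e-08), both under the fold limit. At 54198 to 68741 counts per library, NOTCH2 ranked at the 99.4th percentile of mean CPM among the tested genes.

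Per kilobase of exon, the scale on which genes of different length can be compared, NOTCH3 made up 11.1% ± 0.688 (SD, n = 3) of the summed NOTCH2 and NOTCH3 level in control, 7.6% ± 0.693 in OIM and 1.43% ± 0.296 in bFGF. No library of a group came within the range of another group. Each of the 3 pairwise differences, -3.53 percentage points for OIM against control, -6.17 for bFGF against OIM and -9.7 for bFGF against control, had a two-sided exact permutation p of 0.1, the smallest that 3 libraries against 3 allow. The size of these differences depends on the length used: with coding length, the share of NOTCH2, which is the rest of this sum, was higher by 2.38, 4.01 and 6.39 percentage points in the same 3 comparisons, so that NOTCH3 moved in the same direction by less. NOTCH1 is not part of this sum. NOTCH4, a receptor best known from endothelium and singled out after its values were seen, had 29 to 55 counts per library and was called in none of the 3 comparisons.

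**Figure D1:**
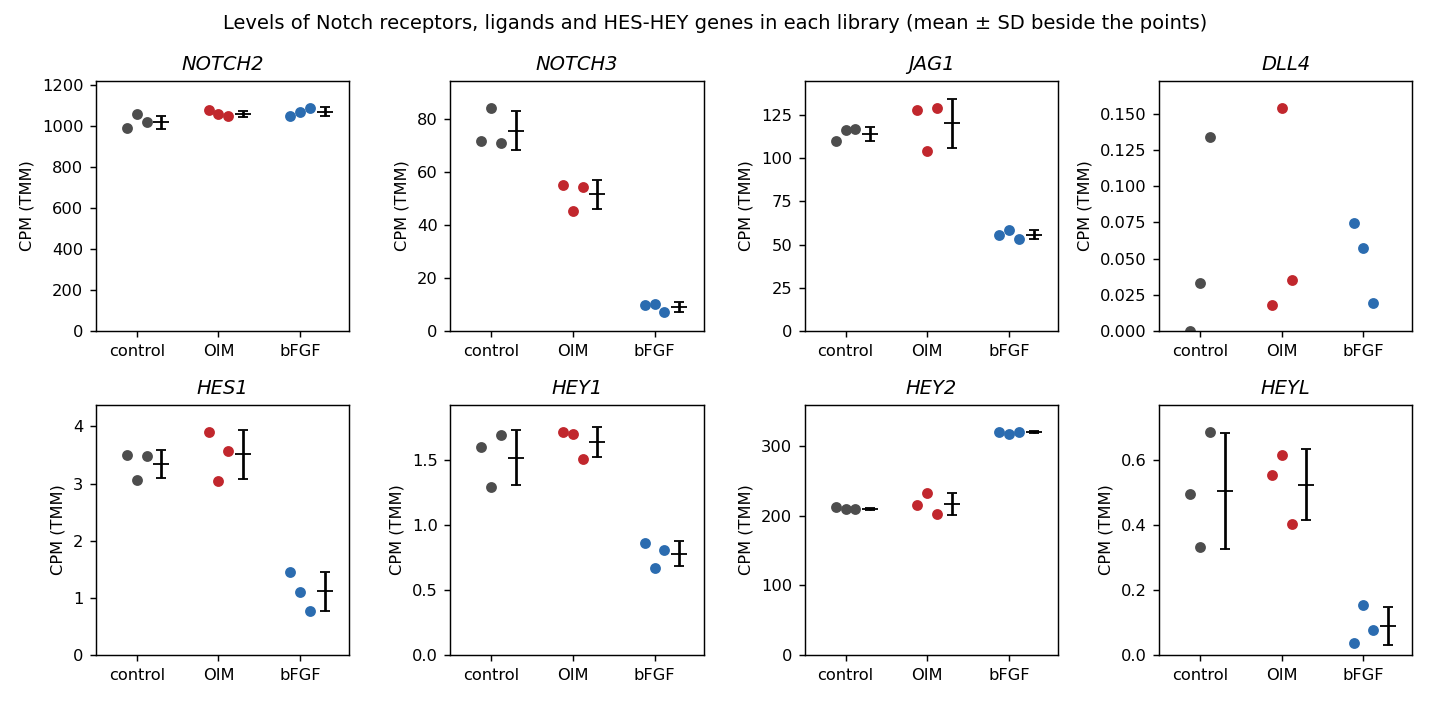
CPM after TMM scaling (vertical axes, each starting at 0) in the 3 control, 3 OIM and 3 bFGF libraries for the 8 analysed genes. Each point is 1 library, and the bar beside it is the mean with its SD (n = 3), left out for DLL4, which had at most 10 counts. NOTCH3, JAG1, HES1, HEY1 and HEYL were lower in every bFGF library than in any other, HEY2 was higher in every one, and NOTCH2 overlapped.

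Transcripts that share the receptor loci carried few counts. LOC100628051, which overlaps the end of NOTCH3, had 0 counts in every library, and the antisense transcript LOC102160224 inside NOTCH2 had an estimated count of 1.9 in 1 OIM library and 0 in the rest. Of 6179 circular RNAs, 2 lay within an analysed gene, both in NOTCH2, with at most 6 and 2 junction counts in any library.

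Of the ligand genes, JAG1 (chromosome 17, 19591248 to 19629659, minus strand), which encodes Jagged1, was tested, and JAG2 was not analysed. JAG1 was lower in bFGF, at under 0.5 of its other levels, and was not called in OIM against control. Its levels were 110, 116 and 117 CPM in control, 128, 104 and 129 CPM in OIM, and 55.6, 58.3 and 53.5 CPM in bFGF. Control fell within the OIM range, and every bFGF library was far below both.

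JAG1 fell by 1.11 on the log2 scale in bFGF against OIM (SE 0.065, edgeR quasi-likelihood adjusted p 6.50e-12) and by 1.04 in bFGF against control (SE 0.065, adjusted p 1.59e-11 in the same edgeR quasi-likelihood fit), which left 46.4% and 48.8% of the means. Without OIM replicate 2 the first of these log2 fold changes was -1.19. In OIM against control the change was 0.07 (95% interval -0.05 to 0.19) and depended on the library: it was 0.17 without OIM replicate 2 (adjusted p 0.0087 in the edgeR quasi-likelihood fit), 0.03 without OIM replicate 1 and 0.02 without OIM replicate 3, none of them past the fold limit. DLL4 (chromosome 1, 130376720 to 130386411, minus strand), the Delta ligand of growing vessels, had 0, 2 and 8 counts in control, 1, 10 and 2 in OIM, and 4, 3 and 1 in bFGF. No difference in DLL4 was detectable at this depth. Per kilobase of exon, JAG1 made up 99.9% of the summed JAG1 and DLL4 level in each group, a sum without JAG2 and without atypical ligands such as DNER, and the groups overlapped in this share (two-sided exact permutation p from 0.4 to 0.7).

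The 4 HES-HEY genes moved in opposite directions under bFGF. HES1, HEY1 and HEYL were lower and HEY2 was higher, and in OIM against control none of the 4 was called. HES1 (chromosome 13, 131135970 to 131137865, plus strand), the most general of these repressors, had 3.50, 3.07 and 3.48 CPM in control, 3.91, 3.05 and 3.57 CPM in OIM, and 1.45, 1.10 and 0.769 CPM in bFGF. Control and OIM overlapped, and the highest bFGF library, at 1.45 CPM, was well under the lowest of the other 6, at 3.05 CPM. The fall in bFGF against OIM was -1.66 on the log2 scale (SE 0.215, edgeR quasi-likelihood adjusted p 9.87e-07), to 31.5% of the OIM mean, on 40 to 78 counts per bFGF library.

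HEY1 (chromosome 4, 56859640 to 56863807, plus strand), a repressor expressed in many Notch-responsive tissues, had 1.60, 1.29 and 1.69 CPM in control, 1.72, 1.70 and 1.51 CPM in OIM, and 0.858, 0.673 and 0.808 CPM in bFGF. Each bFGF library lay below all others. The log2 fold change was -1.07 in bFGF against OIM (SE 0.263, edgeR quasi-likelihood adjusted p 0.00128), which left 47.5% of the OIM mean, on 35 to 46 counts per bFGF library.

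HEYL (chromosome 6, 95442655 to 95459597, minus strand), the third HEY gene, was the least abundant of the 7, at the 6.91th percentile of mean CPM. It had 27, 20 and 41 counts in the control libraries, 30, 40 and 23 in OIM, and 2, 8 and 4 in bFGF. The bFGF counts stood apart from the rest, although each was small. The log2 fold change in bFGF against OIM was -2.53 with a wide SE of 0.585 (95% interval -3.68 to -1.38, edgeR quasi-likelihood adjusted p 0.000764). Its size depended on the bFGF libraries, at -3.16 without bFGF replicate 2 and -2.16 without bFGF replicate 1, and it was called in both. In OIM against control its interval, -0.87 to 0.98, was too wide to show a change of less than about that size.

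HEY2 (chromosome 1, 37219887 to 37231321, minus strand), best known from heart and arteries, was by far the most abundant of the target genes and went the other way. It had 212, 210 and 209 CPM in control, 215, 233 and 202 CPM in OIM, and 321, 318 and 320 CPM in bFGF. The bFGF libraries agreed within 3 CPM and all stood above the highest OIM library. HEY2 rose by 0.56 on the log2 scale in bFGF against OIM (SE 0.042, edgeR quasi-likelihood adjusted p 3.46e-10) and by 0.61 against control (SE 0.042, edgeR quasi-likelihood adjusted p 9.02e-11), which made 148% and 152% of the means. It kept its direction and call under each scaling tried, where its log2 fold change ran from 0.51 to 0.78 against OIM over all alternatives. The 0.5 required lies just under these values, and under a limit of 1 HEY2 was not called.

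**Figure D2:**
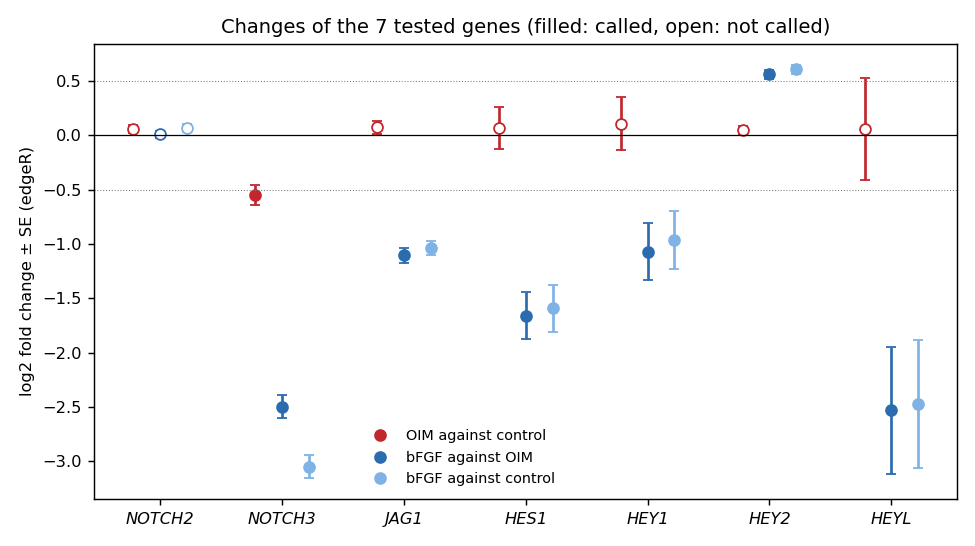
Log2 fold change with its SE (edgeR quasi-likelihood fit, vertical axis) of the 7 tested genes in OIM against control, bFGF against OIM and bFGF against control. Filled points were called and open points were not, and dotted lines mark 0.5 and -0.5. In OIM against control NOTCH3 alone is filled, at -0.55, while in both bFGF comparisons NOTCH2 alone is open and HEY2 is the only filled point above 0.

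Against control, the log2 fold change was -1.59 for HES1 (SE 0.215, adjusted p 1.60e-06), -0.96 for HEY1 (SE 0.264, adjusted p 0.00299) and -2.47 for HEYL (SE 0.587, adjusted p 0.000918) in the edgeR quasi-likelihood fit. That of HEYL ran from -3.10 to -2.11 over the alternatives that gave a value, and it was called in each. In the main fit 6 of the 7 genes were called in bFGF against OIM, 1 higher and 5 lower, where 36.2% of all tested genes were called, 17.7% higher and 18.4% lower. The same 6 genes did not overlap between the groups, where 72.1% of all tested genes did not. The median log2 fold change of the 7 genes was -1.11, beside -0.0029 over all tested genes. In bFGF against control the same 6 were called, where 39.0% of all genes were called, 18.9% higher and 20.0% lower, and 73.7% did not overlap. Those counts share libraries between comparisons and are not separate evidence.

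The opposite moves changed the makeup of the target genes. Per kilobase of exon, HEY2 made up 92.7% ± 0.598 (SD, n = 3) of the summed level of HES1, HEY1, HEY2 and HEYL in control, 92.5% ± 1.02 in OIM and 98.2% ± 0.433 in bFGF. HES1 made up 6.18% ± 0.405, 6.3% ± 1.02 and 1.42% ± 0.43 in the same order, HEY1 0.937%, 0.976% and 0.333%, and HEYL 0.224%, 0.224% and 0.0278%. For each of the 4 genes the bFGF libraries lay outside the range of the OIM libraries, with a two-sided exact permutation p of 0.1, the smallest possible here. The share of HES1 depends on its gene model, since the RefSeq model has 854 exon bases, of which 843 are coding, and so holds almost no untranslated sequence. By coding length its bFGF share was 1.49 percentage points below that of OIM, in place of 4.88.

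**Figure D3:**
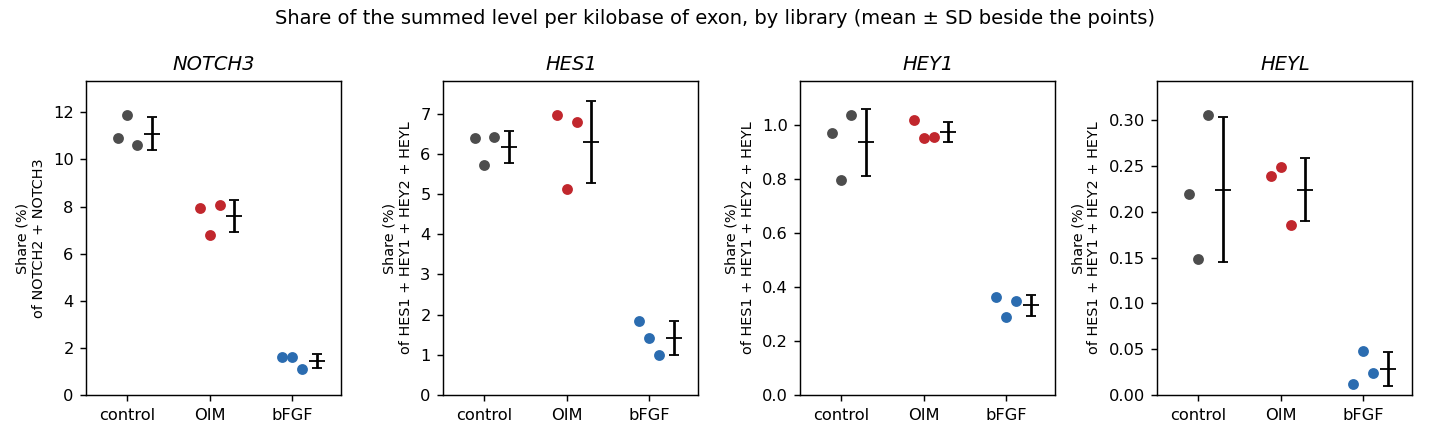
Share in percent (vertical axes, each starting at 0) of NOTCH3 in the summed level of NOTCH2 and NOTCH3, and of HES1, HEY1 and HEYL in the summed level of the 4 HES-HEY genes, all per kilobase of exon. Points are the 3 libraries of each group, with the mean and SD (n = 3) beside them. NOTCH3 steps down from control to OIM to bFGF, whereas HES1, HEY1 and HEYL overlap between control and OIM and are low in bFGF.

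Ordered by mean level per kilobase of exon, control and OIM had the same sequence: NOTCH2, HEY2, JAG1, NOTCH3, HES1, HEY1, HEYL and DLL4, and the library ranges of neighbours in that order did not overlap. In bFGF, HEY2 at 89.5 CPM per kilobase (89.1 to 89.9) came before NOTCH2 at 78.0 (76.3 to 79.6). NOTCH3 and HES1, which were 9.35 and 3.92 CPM per kilobase in control, could not be ordered in bFGF, where their ranges of 0.875 to 1.28 and 0.901 to 1.7 overlapped. HEYL and DLL4 overlapped there as well. The place of HEY2 depends on the length: per kilobase of coding sequence HEY2 came before NOTCH2 in control already, at 207 against 138 CPM per kilobase, and in bFGF at 316 against 144.

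Transcripts also start next to HEY2 and HES1. The long non-coding LOC110260189 begins 344 bases from the start of HEY2 on the opposite strand, and its summed estimated level was 1.19 ± 0.281 CPM in control, 1.58 ± 0.187 in OIM and 1.38 ± 0.182 in bFGF (SD, n = 3). The bFGF libraries, 1.18 to 1.53 CPM, overlapped those of both other groups, whereas HEY2 itself did not overlap. LOC102164131, which begins 391 bases from the start of HES1 on the other strand, varied from 0.00923 to 1.02 CPM across libraries, on estimated counts of 0.5 to 55.8. Its group means were 0.468, 0.279 and 0.145 CPM in control, OIM and bFGF, and the ranges of all groups overlapped. Whether either locus follows its neighbour was not tested.

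For each called gene, the 2 genes with the most similar profile were taken by the root mean square difference of centred log2 CPM over the 9 libraries, which says nothing of shared control. NOTCH3 was followed most closely by ABLIM1 (0.132), an actin-binding protein, with means of 70.3, 56.2 and 8.82 CPM in control, OIM and bFGF, and by PPP4R4 (0.174). JAG1 was followed by FMOD (0.0391), the collagen-binding proteoglycan fibromodulin, with 3950, 4050 and 1860 CPM, and by PCDH7 (0.0419), a protocadherin. HEY2 had the closest neighbours of all, WDR77 (0.029), a partner of the arginine methyltransferase PRMT5, and SRRT (0.0301), an RNA-processing factor. The profile of HES1 was nearest to SSBP3 (0.163) and G0S2 (0.165), that of HEY1 to TMEM170B (0.113) and NUAK2 (0.12), and that of HEYL to RUBCNL (0.32) and B3GNT7 (0.339).

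The rest of the pathway was read from 64 further genes, of which 55 were tested. OIM against control called 2 of the 55 (3.64%, beside 2.35% of all genes). MAML3, a Mastermind coactivator, had 0.661, 1.01 and 1.05 CPM in control and 2.10, 2.04 and 1.38 CPM in OIM. Every OIM library was above every control library, and the log2 fold change was 1.02 (SE 0.227, edgeR quasi-likelihood adjusted p 0.00455). DTX1, a Deltex ubiquitin ligase that regulates Notch receptors, had 6.50, 8.18 and 6.86 CPM in control and 5.72, 4.73 and 4.76 CPM in OIM. Its log2 fold change of -0.50 (SE 0.13, edgeR quasi-likelihood adjusted p 0.0118) lay at the limit of a call, and it was -0.40 without control replicate 2, -0.45 without OIM replicate 2 and -0.46 without OIM replicate 3, none of them called. The bFGF libraries had 3.51, 3.52 and 3.33 CPM of DTX1, below all others. Its log2 fold change was -1.06 in bFGF against control (SE 0.135, edgeR quasi-likelihood adjusted p 7.26e-07), called under every alternative run. Against OIM it was -0.55 (SE 0.137, edgeR quasi-likelihood adjusted p 0.00137), and -0.33 with library totals alone and -0.46 without OIM replicate 1, neither of them called.

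In bFGF against OIM 18 of the 55 genes were called, 10 higher and 8 lower, which is 32.7% beside 36.2% of all tested genes. The median change of the 55 was 0.04 on the log2 scale. The balance of higher and lower depends on the scaling. With library totals alone, which raised the median of all genes by 0.22, KAT2B, DLL1 and DTX1 were no longer called lower. For bFGF against control the count was 19, 10 higher and 9 lower, or 34.5% beside 39.0%. The higher genes of both comparisons include HES2, which passed the filter on low counts only through the bFGF group. As a group the 55 genes were thus called about as often as genes in general. Genes named in the next 3 paragraphs are among the called genes with the largest log2 fold changes in each direction, except RBPJ, FURIN, DLL1, HES5 and DLK1, which were singled out after their values were seen.

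Nuclear partners of the receptor were called in both directions. MAML3 reached 5.30, 6.92 and 6.04 CPM in bFGF, above all OIM libraries, a rise of 1.72 on the log2 scale (SE 0.201, edgeR quasi-likelihood adjusted p 2.36e-07). RBPJ, the DNA-binding partner itself, went from 158 ± 8.11 CPM in OIM to 245 ± 8.33 in bFGF (SD, n = 3), a log2 fold change of 0.63 (SE 0.041, edgeR quasi-likelihood adjusted p 4.54e-11). The related acetyltransferases KAT2A and KAT2B split, with log2 fold changes of 0.90 and -0.70, although with library totals alone KAT2B was at -0.48 and was not called. Altogether 4 of the 9 tested genes of the nuclear activation complex were called, 3 higher and 1 lower, and 3 of 12 corepressor genes, 2 higher and 1 lower. These shares, 44.4% and 25%, stand beside 36.2% of all tested genes.

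At the cell surface, 3 of 4 tested genes among the further receptors and ligands were called, beside 36.2% of all tested genes. DNER, an atypical Notch ligand, rose from 7.23, 9.15 and 7.35 CPM in OIM to 26.9, 27.3 and 26.0 CPM in bFGF, a log2 fold change of 1.75 (SE 0.102, edgeR quasi-likelihood adjusted p 6.18e-12). DLL3, a Delta family member known to act within the cell, rose by 2.01 against OIM (SE 0.514, edgeR quasi-likelihood adjusted p 0.0018) from only 5 to 19 counts per OIM library, and its log2 fold change against control was 0.56 and was not called. DLL1 fell by 0.66, from 2.98 ± 0.424 CPM in OIM to 1.89 ± 0.133 CPM in bFGF (SD, n = 3), and with library totals alone its change of -0.44 was not called. Among genes that modify or move the receptor, LFNG, the Fringe glycosyltransferase that tunes which ligand a receptor answers, fell by 0.94 (SE 0.078), NUMBL, an adaptor in Notch endocytosis, fell by 0.78 (SE 0.061), and NEURL1B, a ligase that acts on ligands, rose by 0.92 (SE 0.088). FURIN, which cuts the receptor on its way to the surface, was the only called gene of 9 in receptor cleavage, at 0.84.

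Of the further HES family genes, 3 were tested. HES6 and HES4 were called lower in bFGF against OIM, beside 18.4% of all tested genes. HES6 fell by 0.81 on the log2 scale (SE 0.139) and HES4 by 0.76 (SE 0.227). HES2 had 4 to 6 counts per OIM library and 14 to 28 per bFGF library, a log2 fold change of 2.33. The fit called it higher, beside 17.7% of all tested genes. Since HES2 passed the filter on low counts only through the bFGF group, that call is not support for a rise. The log2 fold change of HES4 against control, -0.55, was called, but without control replicate 1 it was -0.29, without bFGF replicate 1 it was -0.43 and without bFGF replicate 3 it was -0.43, none of them called. With library totals alone it was -0.33 and not called, and the control and bFGF libraries overlapped, at 3.35 to 5.87 and 2.46 to 4.04 CPM. HES5 and the ligand-like DLK1 had 0 counts in all 9 libraries. A count of 0 in a single library allows an expected count of up to about 3, and less where all 9 are at 0.

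**Figure D4:**
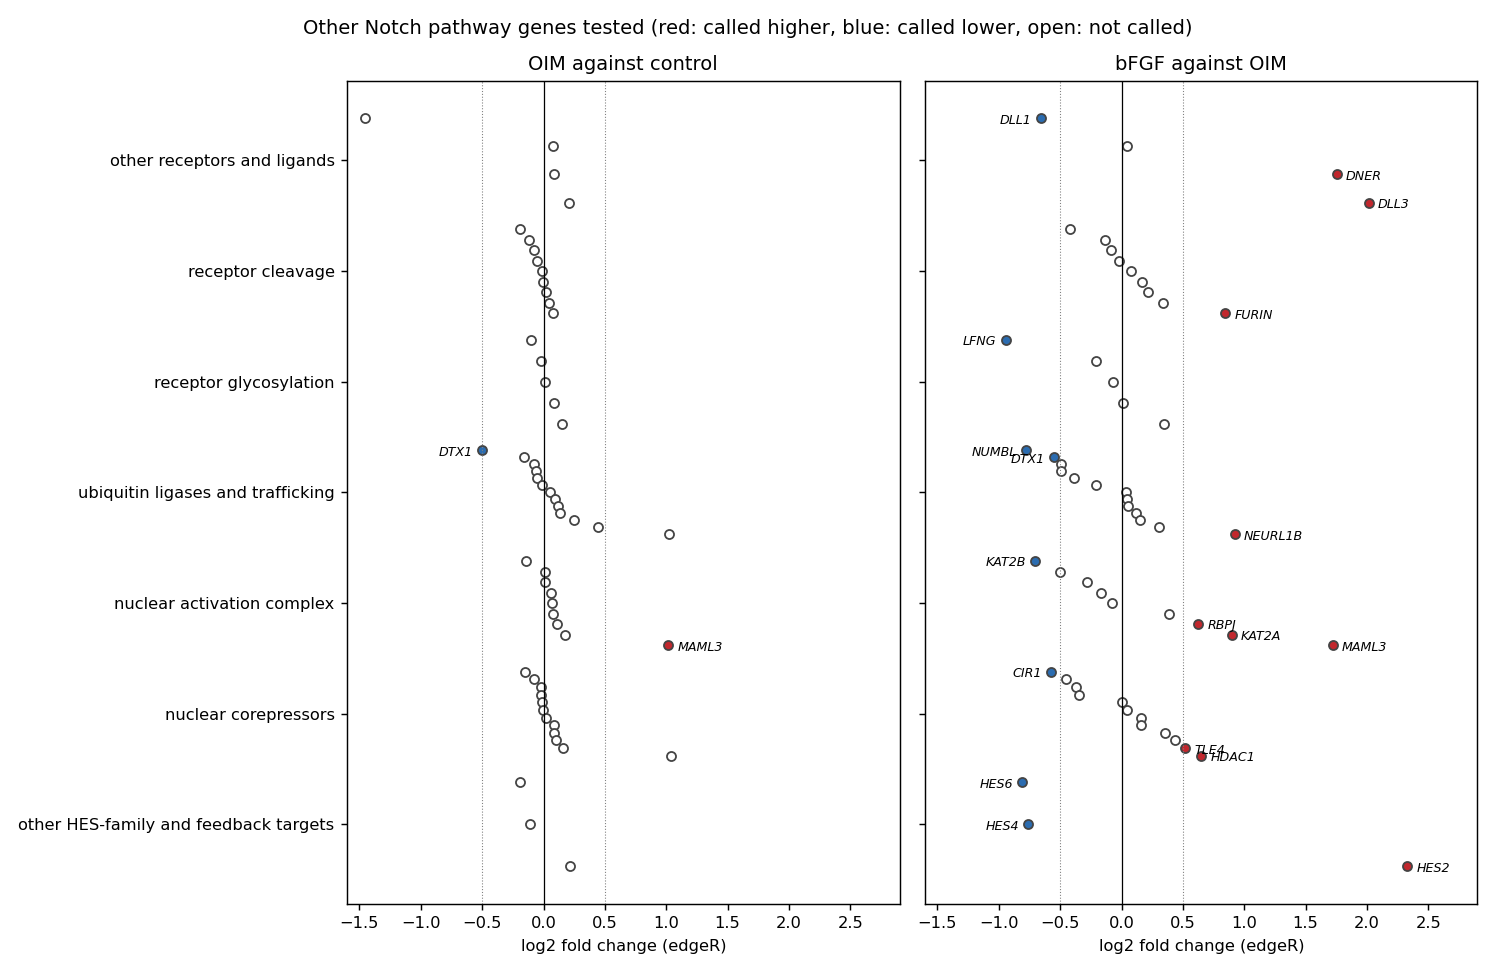
Log2 fold change (edgeR, horizontal axes) of the 55 further Notch pathway genes tested, in rows by role, for OIM against control and for bFGF against OIM. Each point is 1 gene, red where called higher, blue where called lower and open where not called, with dotted lines at 0.5 and -0.5. In OIM against control 2 genes are coloured, and in bFGF against OIM 18 are, 10 red and 8 blue, spread over all the roles.

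Genes on the marker lists of other cell types changed with bFGF. The summed level of 8 pericyte and smooth muscle markers was 9820 to 10300 CPM in control, 10100 to 13300 in OIM and 1890 to 2070 in bFGF. ACTA2 and TAGLN made up most of it, with means of 6790 and 2680 CPM in control, 8450 and 2930 in OIM and 738 and 819 in bFGF. RGS5 and CSPG4 went the other way, from 0.333 and 248 CPM in OIM to 3.36 and 345 in bFGF, CSPG4 without a call. Which cells carried this RNA was not tested. In the sum of 8 markers, OIM replicate 2 was at 10100 CPM, within the control range, and OIM replicates 1 and 3 were at 13200 and 13300 CPM. In bFGF against OIM 6 of those 8 were called lower and 1, RGS5, higher, beside 18.4% and 17.7% of all tested genes. For OIM against control, 3 (DES, MCAM and MYH11) were called higher and 0 lower, beside 1.49% and 0.864% of all tested genes, so NOTCH3 fell with 6 of these markers in the first comparison and fell while 3 of them rose in the second. Without OIM replicate 2 the counts were 6 lower and 1 higher in bFGF against OIM and 4 higher, CNN1 added, in OIM against control. Without bFGF replicate 1 MCAM was not called in bFGF against OIM, which made 5 lower and 1 higher. With library totals alone MCAM was not called in bFGF against OIM and CSPG4 was called higher, which made 5 lower and 2 higher. The summed level of 11 endothelial markers was 74.8 to 77.3 CPM in control, 89.1 to 91.7 in OIM and 172 to 181 in bFGF. CDH5, EMCN, ERG, PECAM1 and TEK were called higher in bFGF against OIM, beside 17.7% of all tested genes. KDR and CLDN5 were also called, which made 7 of 11. Those 2 passed the filter on low counts only through the bFGF group, so their calls are not support for a rise. KDR had 0 counts in 1 OIM library. No other marker of the list was at 0 in any library. ERG made up most of that sum, at 51.5, 66.8 and 137 CPM, and the other 10 markers summed to 22.8 to 25.9 CPM in control, 22.6 to 25.5 in OIM and 38 to 41.3 in bFGF. VWF and ESAM had log2 fold changes of -0.43 each in bFGF against OIM, TIE1 0.13 and NOS3 0.23, none of them called. The part of these shifts in the values of NOTCH3, JAG1 and the HES-HEY genes was not tested.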

How the data were processed

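The 10 genes and all gene lists were chosen with earlier results of these data known. The authors deposited 1 table with 3 parts, of which the gene and circular RNA rows hold whole-number counts and the 9888 non-coding transcript rows hold estimated counts, none normalized. A further 19 columns without a name or value were not used. Per the study's methods, reads were trimmed with Cutadapt and aligned with STAR to susScr11, whereas the submitters' processing notes list Trimmomatic, HISAT2, StringTie and Sscrofa11.1. The counting program and its strand setting were not given in the sources used here. Ribosomal RNA removal is named in the labels and poly-A selection in the methods, which could change the counts of transcripts without a tail.

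Genes were filtered with filterByExpr, scaled by TMM and fitted in edgeR 4.0.16 (R 4.3.3) by the quasi-likelihood method over 3 groups and all 9 libraries, and p-values were adjusted by Benjamini-Hochberg over 13662 genes. The SE was the log2 fold change divided by the square root of F, and a 95% interval is 1.96 SE either way, a normal approximation. It is somewhat narrower than the test implies. For NOTCH2 in bFGF against control it ran from 0.00 to 0.13, where the unadjusted edgeR quasi-likelihood p was 0.0611. The common biological coefficient of variation was 0.0602. In counts simulated for OIM against control, 200 genes with a mean above 1 CPM were changed by 1 on the log2 scale, up or down. Every gene was given the common dispersion. All 200 changed genes of 13487 were recovered with 0 false calls. This easy setting checks the code only, and says nothing of calls near the fold limit or of genes below 1 CPM. Levels per kilobase used the union of RefSeq exons of Sscrofa11.1, and shares were compared by exact permutation in SciPy 1.17.1 under Python 3.11.15. Neighbouring transcripts were matched by coordinates where any part lay within 1000 bases of the gene, and circular RNAs where they overlapped it. NOTCH1 and JAG2 lie on unplaced scaffolds in RefSeq, from which 1 of 1100 protein-coding genes was analysed, beside 19524 of 19563 on chromosomes.

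Genes named beyond the 10 were, per comparison and direction, up to the 5 called pathway genes with the largest change, and the 2 most similar profiles of each called gene. NOTCH4, RBPJ, FURIN, DLL1, HES5, DLK1 and the marker genes fall outside this rule and were named after their values were seen. Alternatives were DESeq2 1.42.0, other scalings, filters and fold limits, a fit on the 2 groups compared alone, a replicate block, other lengths, and each library left out in turn. Same-numbered libraries did not deviate together from their group means (r from -0.032 to 0.004), so the numbers were not taken as pairs. HEYL and DLL4, with at most 41 and 10 counts in a library, are limited by counting error.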

Additional observations from a re-analysis of the deposited data

How the results depend on the processing

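The 6 calls in bFGF against OIM and the 6 in bFGF against control kept their direction under every alternative run, and stayed called except under a fold limit of 1, where HEY2 (0.56 and 0.61) was not called in either comparison and HEY1 (-0.96) not against control. In OIM against control, the 1 called gene, NOTCH3, gave way to 0 under a fold limit of 1, and the count ranged from 0 to 1 with a library left out. Uncalled changes crossed 0 when a library was left out: HES1 -0.0176 to 0.16, HEY1 -0.0017 to 0.19, HEY2 -0.0082 to 0.0942 and HEYL -0.17 to 0.35 in OIM against control (HEYL was -0.08 without OIM replicate 2), and NOTCH2 -0.0062 to 0.0226 in bFGF against OIM. Of the 55 further pathway genes, OIM against control called 7 with no fold limit and 1 with a fold limit of 1 (13.6% and 0.666% of all tested genes), 1 with median-of-ratios size factors, and 1 to 2 with a library left out. DTX1 fell under the limit with median-of-ratios size factors and with DESeq2 (both -0.50), and DESeq2 called DLL3 (-1.45) in its place. The other comparisons called 41 and 39 with no fold limit, where 67.4% and 70.2% of all tested genes were called, and 4 and 6 with a limit of 1, where 18% and 20.2% were. Library totals alone raised the median log2 fold change of all genes to 0.22 in bFGF against OIM, with 3733 higher and 1694 lower calls in place of 2420 and 2519, and to 0.21 against control, with 3931 and 1840 in place of 2584 and 2739. All calls of the 7 genes held there. Of the further pathway genes followed in each comparison, KAT2B (-0.48), DLL1 (-0.44) and DTX1 (-0.33) against OIM, and NUMBL (-0.43) and HES4 (-0.33) against control fell under the limit. The other called genes of the 55 were not followed one by one in this setting, so this list is not complete. With coding length, the NOTCH2 share differed by 2.38, 4.01 and 6.39 percentage points (OIM against control, bFGF against OIM, bFGF against control) in place of 3.53, 6.17 and 9.7, and with no length by 2.25, 3.78 and 6.03. The HES1 share in bFGF differed by -1.49 from OIM and -1.45 from control with coding length, and by -1.25 and -1.21 with no length. A changed length divisor is the whole of that alternative. The replicate block gave the same counts for the 7 genes, 1, 6 and 6, and 2, 18 and 18 of the further pathway genes, losing HES4 against control. HEYL gave no value under a filter of at least 1 CPM in 3 libraries.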
